A study of Saccharomyces cerevisiae with 13 samples.

Results

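The genes described here encode the cytosolic translation factors of the budding yeast Saccharomyces cerevisiae, the proteins that start, lengthen and end polypeptide chains on the ribosome. They were chosen by name and role, with the eIF5A genes left out, and each was represented by its brightest annotated probe set. The choice gave 37 genes on 34 probe sets, of 5284 features tested in all. A probe set of its own was annotated to 31 of the genes. The other 6 shared 3 probe sets, TIF1 with TIF2, TEF1 with TEF2 and EFT1 with EFT2, so the members of each pair cannot be told apart. All 34 probe sets passed the filter on low signals and lay above the background level of non-yeast control probe sets in every group.

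The series compared yeast given spermidine or spermine with controls on 13 one-colour Affymetrix arrays of total RNA. The treated samples, 5 with spermidine and 3 with spermine, carried deletions of SPE3, the spermidine synthase gene, and FMS1, a polyamine oxidase gene. The labels of the 5 control samples name no genotype, and SPE3 and FMS1 were below the background level on all 13 arrays, controls included. The labels give neither dose nor treatment time, and do not say whether arrays came from separate cultures. The tests therefore rest on variation among these arrays, which could be technical.

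As background, translation begins when eIF2 brings the initiator tRNA to the small ribosomal subunit, where eIF3, eIF1, eIF1A and eIF5 help to find the start codon. eIF2B recharges eIF2 with GTP, the eIF4 factors bind the cap and unwind the mRNA, and eIF5B joins the large subunit. eEF1A then delivers each aminoacyl-tRNA, eEF2 moves the ribosome along, and eEF3, an ATPase typical of fungi, is needed for every round of elongation. eRF1 and eRF3, encoded by SUP45 and SUP35, release the finished chain. Polyamines bind RNA and ribosomes, and transcripts of translation factors are among those that yeast cells adjust together with growth rate.

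Arrays differed in ways that their groups do not explain. The mean of 24 stress genes, on the log2 scale and relative to the control mean, stood at 1.13 and 1.09 on controls 2 and 3 and between -0.89 and -0.48 on controls 1, 4 and 5. It was 0.54 on spermine 1, -1.14 and -0.59 on the other spermine arrays, and between -1.82 and -1.21 with spermidine. The translation factors ran the other way among controls: 29 and 27 of the 34 probe sets lay below the control mean on controls 2 and 3, against 10, 10 and 6 on controls 1, 4 and 5. On spermidine 4, which had the highest median signal of any array at 162, 30 of 34 lay below the control mean, with a mean of -0.37. The 80 ribosomal protein genes stood at -0.35 on that array, and between 0.06 and 0.17 on the other spermidine arrays. In the fit, 11 of the 24 stress genes were lower and 1 higher with spermidine, and 0 were called with spermine. Of the 80 ribosomal protein genes, 5 were lower and 1 higher with spermidine, and 0 were called with spermine. Among all features, 14.4% were lower and 17.9% higher with spermidine, and 0.0189% were called with spermine. The part of these array differences in the results was not tested, and values with and without the arrays are given where they matter.

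**Figure D1:**
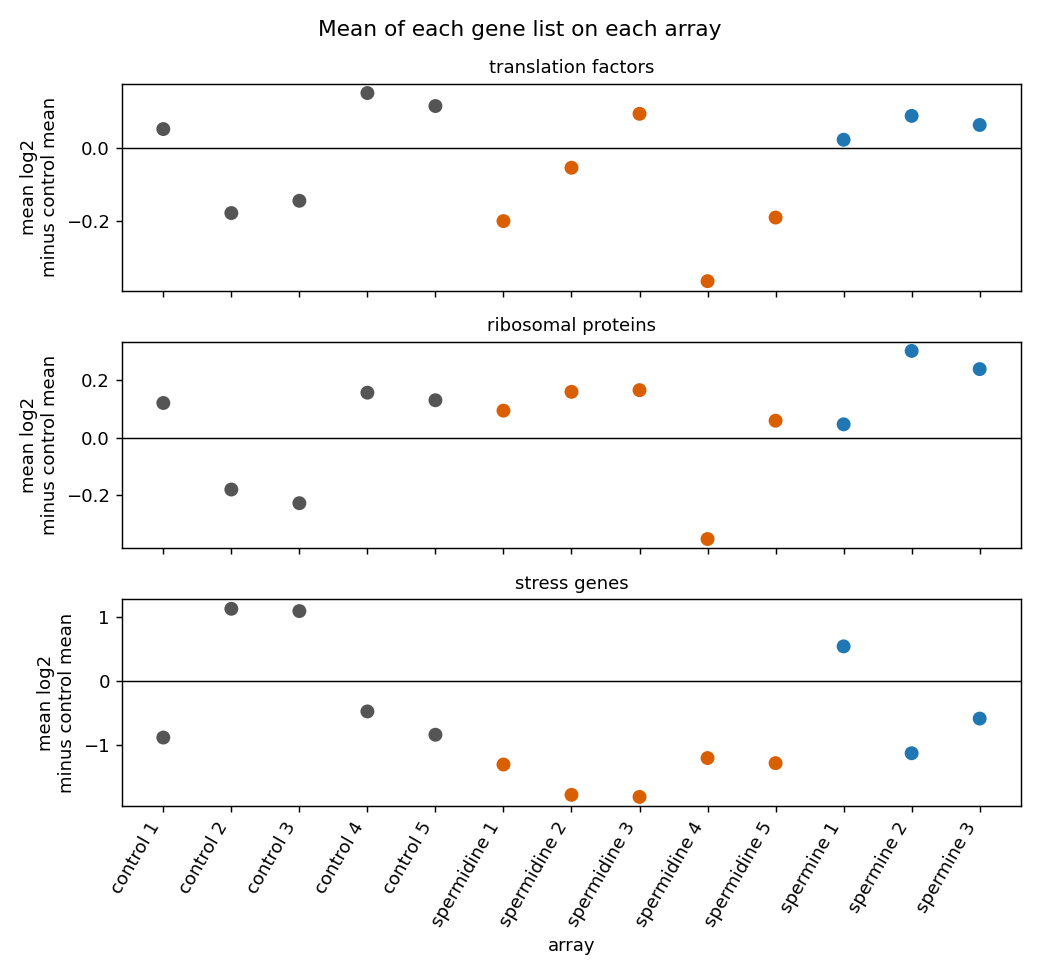
Mean log2 signal minus the control mean on each of the 13 arrays (x axis) for the 34 translation factor probe sets, the 80 ribosomal protein genes and the 24 stress genes, 1 point per array coloured by group. Controls 2 and 3 are low for translation factors, at -0.18 and -0.14, and high for stress genes, and spermidine 4 is lowest for translation factors at -0.37.

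With spermidine, few translation factor genes passed the threshold for a difference from control. TIF5, GCD2, TIF11 and PRT1, which encode eIF5, a subunit of eIF2B, eIF1A and a subunit of eIF3, were lower, and HEF3, a paralogue of the eEF3 gene, was higher. These 5 of 34, or 14.7%, passed an adjusted p of 0.05 in limma, against 32.2% of all 5284 features. At an unadjusted p under 0.05 there were 7, against 42.6%. By direction, 4 were lower where 14.4% of all features were, and 1 was higher where 17.9% were. None of the 34 values exceeded 2-fold, a size passed by 11.3% of all features. The median log2 difference of the 34 was -0.14, beside 0.03 for all features, and 24 of 34 values were below 0, or 70.6%, against 47.9%.

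**Figure D2:**
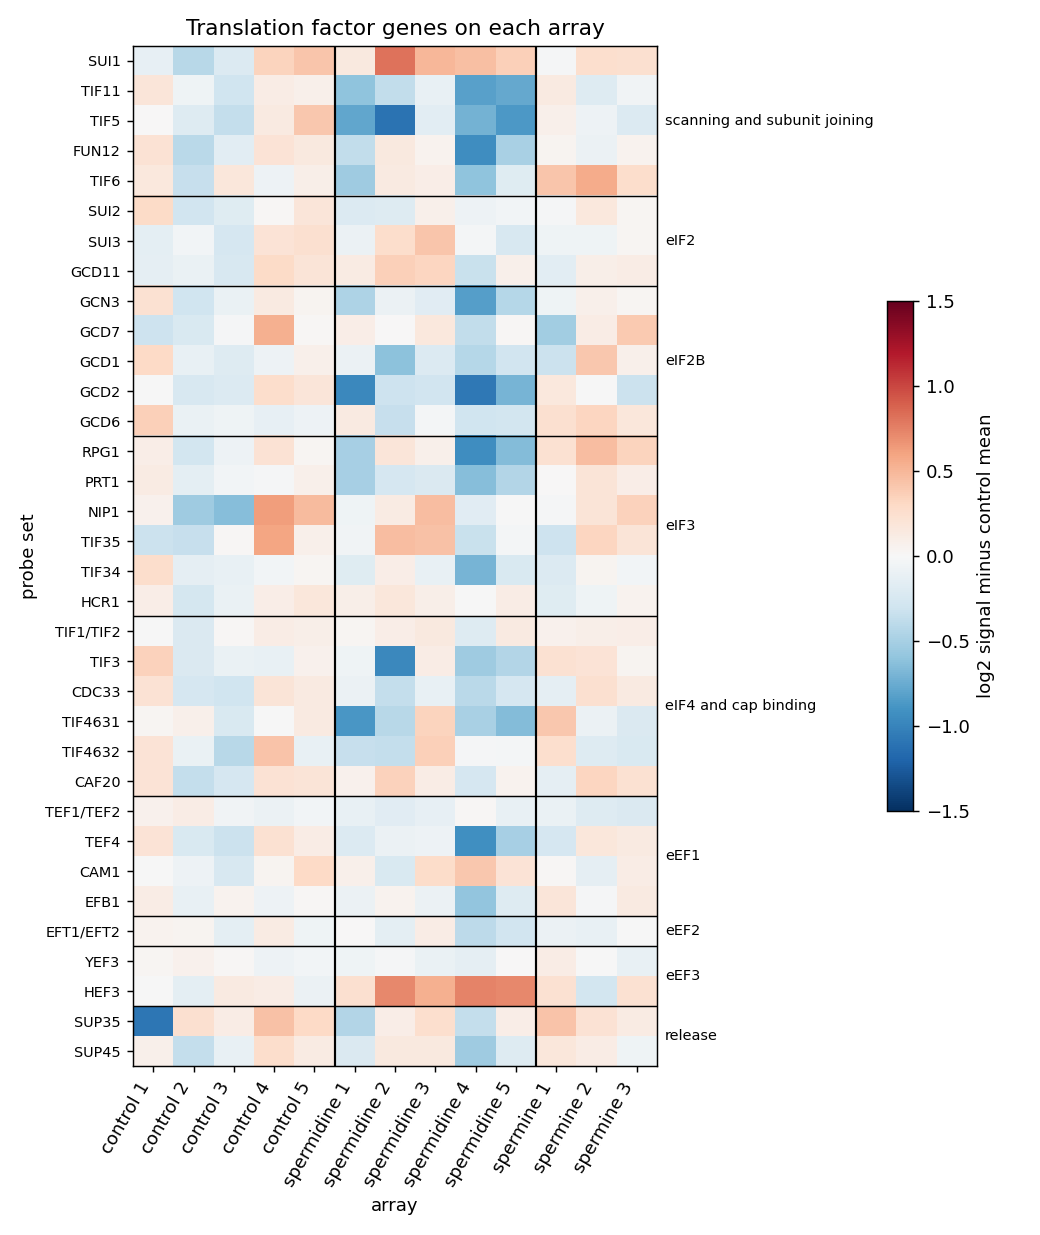
Log2 signal minus the control mean (colour) of each translation factor probe set (rows, grouped by role) on each array (columns, grouped by treatment). TIF5, TIF11 and GCD2 are blue on most spermidine arrays, HEF3 is red on all 5, and most rows are pale with spermine.

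Of the genes for start codon selection and subunit joining, 2 of 5 were lower with spermidine and 0 higher. Of all features, 14.4% were lower and 17.9% higher. TIF5 encodes eIF5, which makes eIF2 hydrolyse its GTP at the start codon. Its signals were 524, 449, 409.6, 573 and 694 in controls 1 to 5, and 317, 223, 452, 357 and 283 in spermidine 1 to 5. Only spermidine 3 reached into the control range. The difference was 1.65-fold (log2 -0.72 ± 0.18, SE, limma adjusted p = 0.00775), the largest among the 34. TIF11 encodes eIF1A, which promotes scanning. Its signals were 1115, 943, 792, 1068 and 1043 in controls and 671, 744, 899, 594 and 576 with spermidine, so that spermidine 3 again lay among the controls. The fall was 1.45-fold (log2 -0.53 ± 0.15, adjusted p = 0.0165).

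SUI1, which encodes eIF1, a guard against wrong start codons, pointed the other way without passing the threshold. The controls averaged a signal of 887 ± 224 (SD, n = 5), and the spermidine arrays averaged 1224 ± 203 (SD, n = 5), in log2 terms a difference of 0.45 ± 0.18 (adjusted p = 0.0619). The groups overlapped, controls 4 and 5 at 1078 and 1163 lying above spermidine 1 at 994. FUN12, for eIF5B, had log2 -0.32 ± 0.19 and TIF6, for eIF6, a factor that keeps ribosomal subunits apart, -0.22 ± 0.16. Neither passed, with adjusted p of 0.214 and 0.314.

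The 5 genes of eIF2B, the exchange factor that eIF2 phosphorylation inhibits, all had values below 0, as did 47.9% of all features. Of the 5, 1 passed, where 32.2% of all features did. GCD2, the delta subunit gene, had signals of 302, 260.0, 269, 363 and 341 in controls and 165, 227, 243, 169 and 187 with spermidine. The groups did not overlap, as in 3 of the 34 members against 23.4% of all features. GCD2 and PRT1 lay wholly below the controls, as 9.29% of all features did, and HEF3 wholly above, as 14.1% did. The fall was 1.59-fold (log2 -0.66 ± 0.18, adjusted p = 0.0116). GCN3, the alpha subunit gene, went from a mean of 683 ± 99.3 (SD, n = 5) to 524 ± 78.4 (SD, n = 5) and missed the threshold (log2 -0.40 ± 0.15, adjusted p = 0.0625). GCD1, GCD6 and GCD7, for the gamma, epsilon and beta subunits, had log2 values of -0.32, -0.16 and -0.02 and did not pass. The subunits of this complex therefore spanned a range from -0.66 to -0.02, and whether they differed from each other was not tested. The 3 genes of eIF2 itself, SUI2, SUI3 and GCD11 for the alpha, beta and gamma subunits, lay between -0.09 and 0.11, and 0 passed.

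Of the 6 genes of eIF3, the scaffold of the initiation complex, PRT1 was lower and the other 5 did not pass. Of all features, 32.2% passed, 14.4% being lower. PRT1 encodes the b subunit. Its signals were 2254, 1934, 2062, 2073 and 2209.6 in controls and 1511, 1819, 1859, 1435 and 1565 with spermidine, without overlap. The fall was 1.33-fold (log2 -0.41 ± 0.11, adjusted p = 0.0109), small in size but set against a narrow spread. RPG1, the a subunit gene, had a similar value with a wider spread (log2 -0.36 ± 0.19, adjusted p = 0.167). Its spermidine signals were 1304, 2148, 2021, 1006 and 1184, so spermidine 1, 4 and 5 lay below every control. Spermidine 2 lay above all controls before normalization and just below control 4 after it. TIF34, TIF35, NIP1 and HCR1, for the i, g, c and j subunits, had values of -0.23, 0.10, 0.07 and 0.09.

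**Figure D3:**
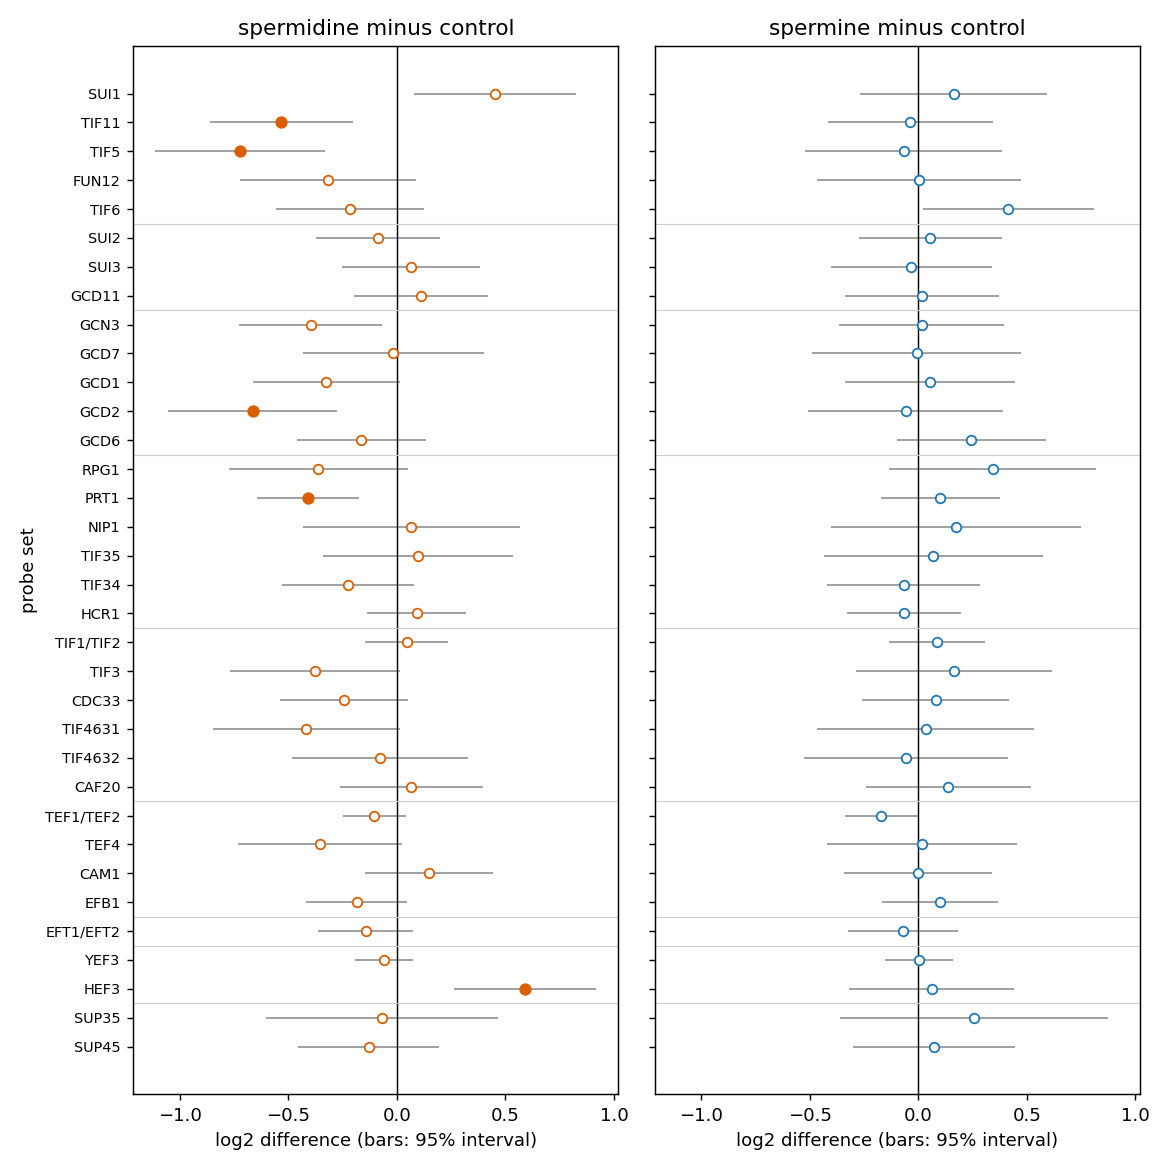
Log2 difference from control (x axis) of each translation factor probe set (y axis, lines divide the roles) with spermidine on the left and spermine on the right. Points are limma estimates, bars their 95% intervals before adjustment, and filled points pass an adjusted p of 0.05: 5 are filled with spermidine and 0 with spermine.

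No probe set of the eIF4 and cap-binding group passed. TIF4631 and TIF4632 encode paralogous forms of eIF4G, the scaffold that links cap and poly(A) tail. TIF4631 had signals of 551, 551, 459, 530.1 and 593 in controls and 304, 378, 658, 415 and 339 with spermidine. Spermidine 3 was the highest of these 10 arrays and the other 4 lay below all controls (log2 -0.42 ± 0.20, adjusted p = 0.129). TIF4632 had signals of 110.1, 97.3, 79.3, 131 and 88.9 in controls and 80.6, 67.9, 122, 112 and 97.5 with spermidine, which overlap widely (log2 -0.08 ± 0.19, adjusted p = 0.782). The shared probe set of TIF1 and TIF2, which encode the same RNA helicase eIF4A, had 5973, 5306, 6199, 6698 and 6491 in controls. With spermidine it had 6117, 7284, 6615, 4720.2 and 6957 (log2 0.05 ± 0.09, 95% interval -0.15 to 0.24). TIF3 for eIF4B, CDC33 for the cap-binding protein eIF4E and CAF20 for a protein that binds and restrains eIF4E had log2 values of -0.38, -0.24 and 0.07.

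No probe set of the main elongation factor genes passed. They are among the brightest of the members, as are EFB1 and the shared probe set of TIF1 and TIF2. Quantile normalization draws the brightest probe sets of all arrays toward common values, which narrows their spread and intervals. Saturation was not checked. YEF3 encodes eEF3, and its signals were 12223, 12884, 13137, 11831 and 11296 in controls and 11173, 13906, 10781, 9065 and 13258 with spermidine. After normalization the difference was -0.06 ± 0.06 on the log2 scale with a 95% interval from -0.19 to 0.08. The shared probe set of TEF1 and TEF2, the genes of eEF1A, had 10655, 11542, 10421, 10387 and 9672 in controls. With spermidine it had 9548, 10735, 9520.1, 8462 and 10120.5 (log2 -0.10 ± 0.07, 95% interval -0.25 to 0.04). That of EFT1 and EFT2, the genes of eEF2, had 5477, 5534, 4791, 5790.0 and 5079 in controls and 4984, 4951, 5586, 3618 and 4272 with spermidine (log2 -0.14 ± 0.10, 95% interval -0.36 to 0.08). These intervals, taken before adjustment and after normalization, lie within a 1.5-fold change in either direction.

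Of the exchange factors that recharge eEF1A, EFB1 for the catalytic subunit had log2 -0.19 ± 0.11. TEF4 and CAM1, paralogous genes of the gamma subunit, had -0.36 ± 0.18 and 0.15 ± 0.14. None of these passed, with adjusted p from 0.140 to 0.443. EFB1 and TEF4 each had a further, dimmer probe set, with log2 values of -0.05 and -0.30. The release factor genes SUP35 and SUP45 had -0.07 ± 0.25 and -0.13 ± 0.15. SUP35 had the widest normalized within-group SD of the 34, at 0.44, with control 1 at a signal of 553 and the other controls between 1244 and 1558. Without control 1 its log2 difference was -0.34 (adjusted p = 0.133).

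HEF3 was the 1 translation factor gene that passed as higher. It encodes a close relative of eEF3, and in yeast it is known as a poorly expressed copy beside YEF3. Its signals were 58.8, 60.7, 72.9, 64.9 and 53.6 in controls and 75.1, 90.1, 85.2, 118 and 101 with spermidine. All spermidine arrays lay above all controls. The rise was 1.51-fold (log2 0.59 ± 0.15, limma adjusted p = 0.00908). With 64 added to each signal before the log, the HEF3 difference was log2 0.32 and still passed. The background level was at most 17.7 in these groups, under all of these signals. How much YEF3 transcript binds to the HEF3 probe set was not tested; YEF3 itself had log2 -0.06.

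**Figure D4:**
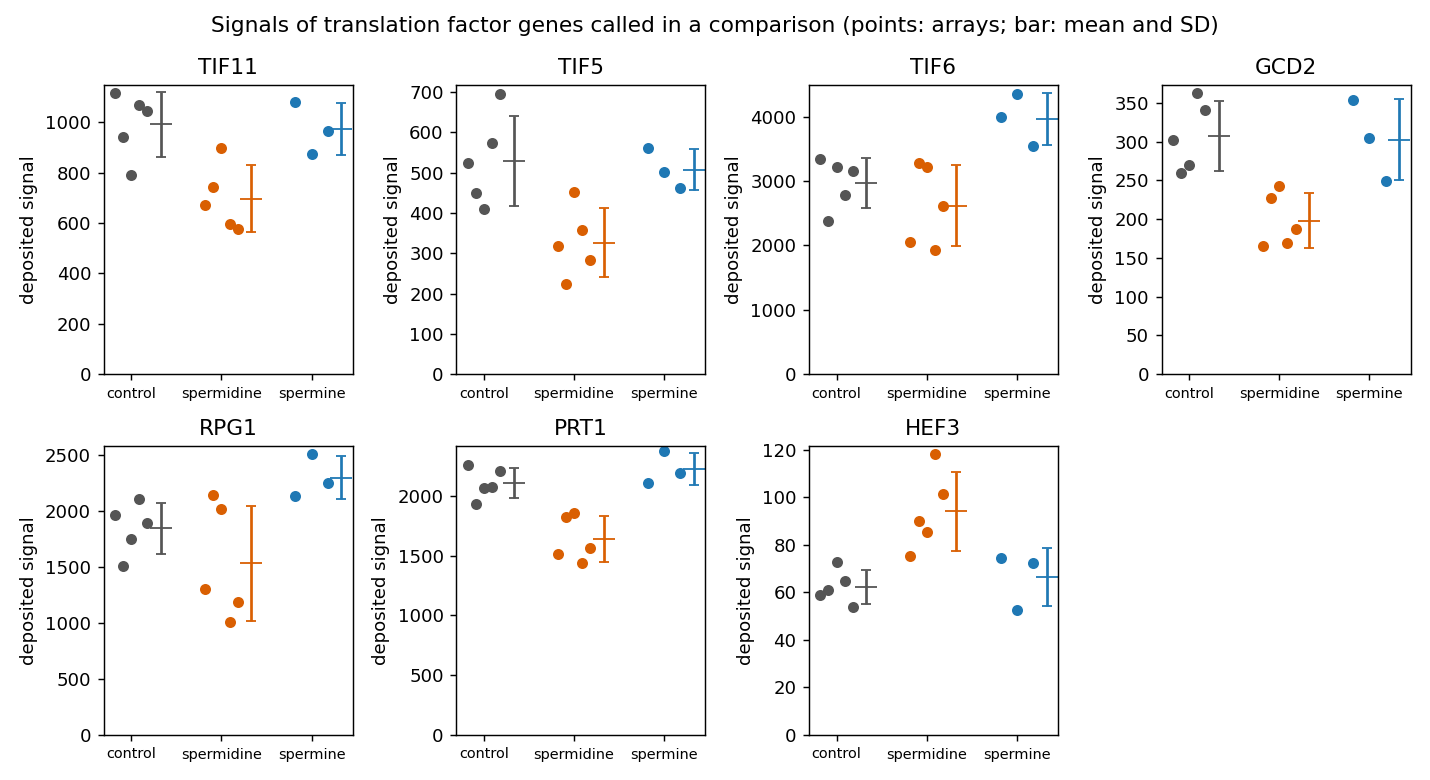
Deposited signals (y axis, linear, from 0) of the 7 translation factor genes that passed in any comparison, 1 point per array with the group mean and SD beside the points. HEF3 is higher with spermidine, at 75.1 to 118, than in controls, at 53.6 to 72.9, whereas GCD2 and PRT1 are lower. The group means of TIF6 and RPG1 are highest with spermine.

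Which controls were used changed these counts. Against controls 1, 4 and 5 alone, 28.6% of the 5284 features were called, 680 as lower and 830 as higher. Among members, 7 were lower and 1 higher, with a median of -0.25. The 7 were TIF5 (log2 -0.90), GCD2 (-0.81), TIF11 (-0.66), TEF4 (-0.54), GCN3 (-0.53), PRT1 (-0.47) and CDC33 (-0.43). Against controls 2 and 3 alone, 31.2% of the 5284 features were called, 708 as lower and 939 as higher. Among members, 0 were lower and 2 higher, with a median of -0.08. There TIF5, GCD2, TIF11 and PRT1 had -0.45, -0.44, -0.35 and -0.32, with adjusted p from 0.145 to 0.233. HEF3 had 0.58 against controls 1, 4 and 5 and 0.60 (adjusted p = 0.0575) against controls 2 and 3. The 2 higher members were SUI1 (log2 0.76) and NIP1 (log2 0.65). The value of NIP1 against controls 1, 4 and 5 was -0.32, its control signals being 517, 336, 321, 758 and 685. Without spermidine 4, 4 members were lower and 1 higher, and the median was -0.09, with 29.3% of all features called. On the signals as deposited, without the normalization, 4 were lower and 2 higher, with 31.2% of all features called.

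The same control arrays served for spermine, a longer polyamine built from spermidine by adding an aminopropyl group. No translation factor gene passed in limma, where 0.0189% of all features did. At an unadjusted p under 0.05 there were 2 of 34, TIF6 and the probe set of TEF1 and TEF2, against 8.74% of all features. The median of the members was 0.04 and that of all features 0.02. The 95% interval, before adjustment, lay within a 1.5-fold change in either direction for 27 of 34 members, against 40.1% of all features, and within 2-fold for all 34. These intervals bound the differences and do not show that they are absent.

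TIF6 had the largest value with spermine. Its signals were 3343, 2378, 3217, 2777 and 3151 in controls 1 to 5 and 3994, 4358 and 3549 in spermine 1 to 3, with no overlap, in log2 0.41 ± 0.18 (adjusted p = 0.544). RPG1 also did not overlap, with 1964, 1513, 1749, 2109.9 and 1898 in controls and 2135, 2511 and 2255 with spermine (log2 0.34 ± 0.22, adjusted p = 0.733). The probe set of TEF1 and TEF2 had 9002, 9837 and 9322 with spermine, and its normalized values lay below all controls (log2 -0.17 ± 0.08, adjusted p = 0.566). These were the 3 of 34 members without overlap, against 6.49% of all features, 3.84% being higher and 2.65% lower. The genes that changed with spermidine had spermine values near 0: TIF5 -0.07 ± 0.21, GCD2 -0.06 ± 0.21, TIF11 -0.04 ± 0.18, PRT1 0.10 ± 0.13 and HEF3 0.06 ± 0.18. With controls 1, 4 and 5 alone the members had a median of -0.09, and with controls 2 and 3 alone one of 0.20. In both, 0 members were called, where 0.227% and 2.67% of all features were.

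For the other paralogues, spermine signals were 716, 510.2 and 465 for TIF4631 (log2 0.03 ± 0.23) and 123, 87.1 and 86.1 for TIF4632 (log2 -0.06 ± 0.22). Both ranges overlapped those of the controls. The probe set of TIF1 and TIF2 had 6095, 6755 and 6558 (log2 0.09 ± 0.10), and that of EFT1 and EFT2 had 4706, 4919 and 5373 (log2 -0.07 ± 0.12). YEF3 had 11382, 13031 and 11488, with a log2 difference of 0.00 ± 0.07.

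The treated groups were then compared with each other, as 1 pair of related compounds in the same fit. Since the labels give no dose or time for either, the comparison is between the groups as labelled. RPG1, TIF5, TIF6 and PRT1 were higher with spermine than with spermidine and HEF3 was lower. These 5 of 34, or 14.7%, stand beside 20.5% of all features. The 4 that were higher stand beside 9.20% of features higher, and the 1 lower beside 11.3% lower.

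PRT1 had signals of 2106, 2373 and 2195 with spermine, above all 5 spermidine arrays (spermine minus spermidine log2 0.51 ± 0.13, limma adjusted p = 0.0106). TIF6 had 2055, 3275, 3214, 1925 and 2619 with spermidine, all below its spermine signals (log2 0.63 ± 0.18, adjusted p = 0.0244). For RPG1 the difference was 1.63-fold (log2 0.71 ± 0.22, adjusted p = 0.0369), although spermidine 2 at 2148 reached the spermine signals before normalization. RPG1 kept its call in 16 of 28 alternatives and lost it, among others, on the signals as deposited and in a fit of only the 2 groups compared. TIF5 had 560.2, 502 and 461 with spermine, and spermidine 3 came close at 452, overlapping after normalization (log2 0.65 ± 0.21, adjusted p = 0.0409). HEF3 had 74.6, 52.4 and 72.2 with spermine, the highest just under spermidine 1 at 75.1 (log2 -0.53 ± 0.18, adjusted p = 0.0480).

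GCD2 and TIF11 narrowly missed in this comparison, at log2 0.61 ± 0.21 (adjusted p = 0.0538) and 0.50 ± 0.18 (adjusted p = 0.0632). Groups did not overlap for 6 of 34 members, against 27.5% of all features. HEF3 was the 1 lower, against 14.8%, and 5 were higher, against 12.7%. Besides PRT1, TIF6, RPG1 and HEF3 these were GCN3 (log2 0.41) and GCD6 (log2 0.41). For 16 of the 34 members, or 47.1%, the 95% interval lay within a 1.5-fold change, against 24.4% of all features. Among the 16 were YEF3 (-0.10 to 0.22) and the shared probe sets of TEF1 and TEF2 (-0.23 to 0.10), TIF1 and TIF2 (-0.18 to 0.26) and EFT1 and EFT2 (-0.18 to 0.33). The calls depended on single arrays, and so did those over all features, of which 20.5% were called with every array. With every array, 4 members and 486 of 5284 features were higher. Without spermine 2, 0 members and 306 features were higher, with 14.2% of all features called. There was 1 member higher without spermine 1 (367 features higher) and 1 without spermidine 1 (416). There were 2 without spermine 3 (313), 2 without spermidine 4 (412) and 2 without spermidine 5 (403). Without spermidine 3, 8 members and 473 features were higher. HEF3 lost its call without any 1 array except spermidine 1. After centring on array medians 1 member was higher and 0 lower, with 19.4% of all features called.

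Other genes of translation were counted as well. Among 24 genes for further cytosolic factors and regulators, 3 were higher and 6 lower with spermidine. The lower ones were GIS2, a zinc finger RNA-binding protein (log2 -0.83 ± 0.18), GCN1, an activator of the eIF2 kinase Gcn2 (-0.73 ± 0.19), and DOM34, which rescues stalled ribosomes (-0.61 ± 0.14). DED1, a helicase used in scanning, had -0.58 ± 0.12, and the ATPase genes NEW1 and ARB1 -0.46 and -0.42. The higher ones were TMA64, which is related to eIF2D (log2 0.90 ± 0.14, limma adjusted p = 1.76e-04), PBP1, a partner of the poly(A)-binding protein (0.47 ± 0.14), and YGR054W, which encodes eIF2A (0.42 ± 0.15). The 9 of 24 called, 37.5%, are near the 32.2% of all features. With spermine 0 of these genes passed against control and 0 had an unadjusted p under 0.05, where 8.74% of all features did. Against spermidine, 5 were higher and 1 lower, beside 9.20% and 11.3% of all features. GIS2 had log2 1.01 ± 0.21 there and TMA64 -1.04 ± 0.16.

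Of 7 mitochondrial translation factor genes tested, 2 were higher with spermidine, TUF1 (log2 0.36 ± 0.13) and MEF1 (0.54 ± 0.19), which encode elongation factors of the organelle. These 28.6% stand beside 17.9% of all features higher and 32.2% called in either direction. The median was 0.24, beside 0.03 for all features, and 6 of 7 values were above 0, as were 2753 of all 5284 features. MRF1 was under the filter. Of 6 tested genes for diphthamide, the modified histidine of eEF2, DPH6 was lower (log2 -0.57 ± 0.19) and the rest did not pass. Of all features, 14.4% were lower. Neither list had a member called with spermine against control, and 0 of either had an unadjusted p under 0.05.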

How the data were processed

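RNA of 13 samples was hybridised to 1-colour Affymetrix arrays, 1 array per sample. The authors deposited linear signal intensity values, for which the submitters' processing notes name MAS5 without a version. Every array had a 2% trimmed mean of 500.4 to 500.5, so a scaling factor had been applied before deposit. Titles gave each sample's group and number.

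The arrays held 9335 probe sets, and 60 control probe sets were not tested. The log2 of each signal, with nothing added, was quantile normalized, because array medians differed by 1.29-fold (125 to 162). The dimmest 25% of probe sets, with a geometric mean signal under 37.81, were left out. The brightest probe set stood for each gene, which gave 5102 genes, and 182 probe sets naming several genes were kept in the same table. Gene names are those of the platform annotation. The background level of a group is the signal under which 95% of the 19 control probe sets of other organisms lie.

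One limma model (version 3.58.1, under R 4.3.3) of the 3 group means was fitted to all 13 arrays, its prior variance following intensity. Adjusted p-values are Benjamini-Hochberg over all 5284 features with a threshold of 0.05, log2 differences are given ± their standard error, and fold changes come from normalized values. Signals in the text are the deposited ones. Overlap between groups was judged on normalized values. The number of arrays limits the precision. Genes described with signals array by array are members that passed in a comparison without overlap, and paralogue pairs. TIF5 and TIF11, which passed with overlap, and SUI1, GCN3, NIP1 and SUP35 were given such values after they were seen. The members and gene lists were chosen with earlier results of these data known. The fitting was tested on simulated data with 200 changed features among 5284, whereas 1703 features were called for spermidine against control. For spermidine against control it recovered 22.4% of changes of log2 0.5 and 77.6% of changes of log2 1. For spermine against control it recovered 11.9% and 68.7%, and for spermine against spermidine 17.9% and 76.1%. The adjusted threshold depends on how many features change, so these rates need not hold for the data. The members also had a median within-group SD of 0.24, beside 0.29 for all features. Changes of the sizes reported here could be missed, and how many was not tested. Alternatives were other normalizations, pseudocounts, filters, array weights, fits on part of the arrays, and blocks. Plots used Python 3.11.15 and matplotlib 3.10.9. Sequences were not used here.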

Additional observations from a re-analysis of the deposited data

Results flagged for a closer look

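Among 68 sets of 5 arrays (34 probe sets in controls and with spermidine), 3 had 1 array far from the other 4 by Dixon's test at its 95% level, where chance gives about 5% of sets. The gap to the nearest array over the range of the 5 was taken on normalized log2 values, and the signals beside it are the deposited ones. SUP35 on control 1 had a signal of 553, the other controls lying between 1244 and 1558 (log2 gap over range 0.783). GCD6 on control 1 had 697, the others between 484 and 512 (log2 gap over range 0.871). GCD7 on spermidine 4 had 713, the others between 859.8 and 976 (log2 gap over range 0.713).

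In the direct comparison in limma, 5 of 34 members, or 14.7%, differed between spermine and spermidine, beside 20.5% of all features. The spermine minus spermidine values were log2 0.71 for RPG1, 0.65 for TIF5, 0.63 for TIF6, 0.51 for PRT1 and -0.53 for HEF3. The calls were kept in 16, 18, 22 and 25 of 28 alternatives for RPG1, TIF5, TIF6 and PRT1. HEF3 kept its call in 7 of 27.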

How the results depend on the processing

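Each of 102 values (34 probe sets, 3 comparisons) was recomputed under 28 alternatives, HEF3 and TIF4632 being absent with the dimmest 50% left out. Of 2850 values, 2749 kept their side of the threshold, 58 lost a call, 43 gained one and 0 reversed; a change of sign in a value that was not called counted as kept. With spermidine against control, the number higher was 1, and 2 on values as deposited, 2 with controls 1, 4 and 5 left out, 0 with the dimmest 50% left out, and 1 to 2 with single arrays left out. The number lower was 4, where 759 of 5284 features were lower, and 10 with array weights (924 features lower). It was 7 with controls 2 and 3 left out (680), 7 with spermine 1 left out as well (714) and 8 with these 3 arrays as a block (785). With controls 1, 4 and 5 left out it was 0 (708). PRT1 also lost its call when arrays were centred on their medians (3 lower). For spermine against control the counts stayed at 0 in all 28 alternatives, and the median moved from 0.04 to 0.20 with controls 1, 4 and 5 left out. For spermine against spermidine, the number higher was 4, where 486 of 5284 features were higher, and 1 after median centring (466 features higher). It was 7 with array weights (669), 2 without controls 2 and 3 and spermine 1 (482) and 10 with these as a block (664). With single arrays left out it was 0 to 8. It was also 4 on values as deposited, where RPG1 lost its call and GCD2 gained one. The number lower was 1 (HEF3), and 0 as deposited, after median centring, without a filter, with array weights, with the dimmest 50% left out, with only the 2 groups compared, with controls 1, 4 and 5 left out, with controls 2 and 3 and spermine 1 left out, and 0 to 1 with single arrays left out. The cause was not tested.

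Replicate numbers shared by the groups gave no sign of pairing. Deviations from group means of same-numbered arrays correlated between -0.55 and 0.21 over 11 pairs. Of 22 comparisons of an array with another group, 2 were closest to the same number. The array differences described above enter these correlations, so they cannot show that the arrays were unpaired. With the replicate block, 3 members were lower and 1 higher with spermidine (26.8% of all features), TIF11 losing its call (adjusted p = 0.0532), and 0 were called between spermine and spermidine (12.3%).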

Other observations

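Many members divided the spermidine arrays in the same way, and the share of all features that did so was not counted. The mean of the members relative to the control mean was -0.20, -0.37 and -0.19 on spermidine 1, 4 and 5. On spermidine 2 and 3 it was -0.05 and 0.10. RPG1 had 1304, 1006 and 1184 on spermidine 1, 4 and 5 and 2148 and 2021 on spermidine 2 and 3. FUN12 had 2356, 1662 and 2237 on the former and 3488 and 3270.3 on the latter, and TIF6 had 2055, 1925 and 2619 against 3275 and 3214. GCD2 had 165, 169 and 187 against 227 and 243, and TEF4 1935, 1225 and 1579.7 against 2136 and 2195. PRT1 and TIF11, both called lower with spermidine, did so as well. PRT1 had 1511, 1435 and 1565 against 1819 and 1859, and TIF11 671, 594 and 576 against 744 and 899. HEF3 did not divide them so, standing at 75.1, 118 and 101 against 90.1 and 85.2. Nor did others, such as TIF5, TIF3 and GCD1, whose lowest spermidine signals, 223, 799 and 611, were on spermidine 2. These genes were picked after their values were seen, and the labels give nothing that separates these arrays.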
